A study of Homo sapiens with 20 samples.

Results

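Of the 60624 genes listed for hILOs and the 60623 listed for PPs, 10 genes that are commonly used as mesenchyme markers and are not collagens were followed here: *POSTN*, *LUM*, *DCN*, *FN1*, *CTHRC1*, *VIM*, *TAGLN*, *ACTA2*, *THY1* and *PDGFRA*. All 10 were matched to an Ensembl identifier in both sets of files. They were chosen by their WT against A5-KO levels in these same libraries (hILO TPM and PP CPM), so their differences between genotypes are given as a description. Where members past a limit are counted in such a contrast, the count describes size and spread and is not a test of these genes.

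The cells came from MEL1, a human embryonic stem cell line with a GFP reporter in 1 allele of *INS*, which was kept on CF1 feeder cells before differentiation. WT cells carried no edit of *ALKBH5*, which encodes an eraser of the RNA mark m6A, and A5-KO cells carried a homozygous CRISPR-Cpf1 knockout of it. The sequenced stages were hILOs, islet-like organoids (2 WT and 2 A5-KO libraries, untreated), and PPs, pancreatic progenitors (16 libraries), which were collected without treatment (0 h) or after 1, 2 or 3 h with 1 μg/ml of the transcription blocker actinomycin D (Act D), with 2 libraries for each genotype and time. The A5-KO libraries carry the name of 1 of the edited lines, so the knockout and other properties of that line cannot be told apart. *ALKBH5* was at 78.8 and 81.9 TPM in WT hILOs against 4.16 and 3.42 TPM in A5-KO hILOs, and at 149 and 172 CPM in WT PPs against 19.1 and 18.8 CPM in A5-KO PPs at 0 h. TPM is a transcript's share of its library after division by gene length, and keeps no depth. CPM is a share of reads that divides by the total only, and 30516384 to 35206514 reads lay behind each PP library.

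Mesenchyme is the loose connective tissue of the embryo. In the developing pancreas it surrounds the epithelium from which endocrine cells arise, and its cells lay down a matrix of collagens and glycoproteins. Secreted matrix proteins are encoded by 5 of the genes, namely *FN1* (fibronectin, to which integrins bind), *POSTN* (periostin, which links matrix proteins and collagens), *LUM* and *DCN* (lumican and decorin, small leucine-rich proteoglycans that bind collagen fibrils) and *CTHRC1* (a secreted protein with a short collagen-like stretch). Parts of the cytoskeleton are encoded by 3 genes, namely *VIM* (vimentin, an intermediate filament), *ACTA2* (smooth muscle α-actin) and *TAGLN* (transgelin, an actin-binding protein). *THY1* is an anchored surface glycoprotein of fibroblasts, and *PDGFRA* is the receptor tyrosine kinase for platelet-derived growth factor found on many mesenchymal cells. In GRCh38, 4 of the matrix genes lie on the minus strand (*POSTN* at chr13:37562583-37598844, *LUM* at chr12:91102629-91111494, *DCN* at chr12:91140484-91183217 and *FN1* at chr2:215360440-215436073). *ACTA2* and *THY1* are on the minus strand (chr10:88935074-88991339 and chr11:119415476-119424985), and *VIM* at chr10:17228241-17237593, *TAGLN* at chr11:117199370-117207464 and *PDGFRA* at chr4:54229280-54298245 are on the plus strand. All 10 genes are protein-coding. Several of these mRNAs are not limited to mesenchyme: fibronectin is also made by hepatocytes and early endoderm, and vimentin by many cultured cells.

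The genes differ in their start regions. RefSeq windows of 250 bases before to 50 bases after the start (build GRCh38.p14, 300 bases) were found for 5 of the 10 genes. Those of *POSTN*, *FN1* and *VIM* are shown because *POSTN* was the member higher in A5-KO by the most at both stages on the log2 scale and *FN1* and *VIM* were the most abundant genes of the group. Each is written in its gene's direction, from chr13:37598719-37599018 (minus strand), chr2:215436019-215436318 (minus strand) and chr10:17227991-17228290 (plus strand), and capitals mark TATAA (the core of a TATA box) and GGGCGG (a GC box), searched on both strands.
POSTN: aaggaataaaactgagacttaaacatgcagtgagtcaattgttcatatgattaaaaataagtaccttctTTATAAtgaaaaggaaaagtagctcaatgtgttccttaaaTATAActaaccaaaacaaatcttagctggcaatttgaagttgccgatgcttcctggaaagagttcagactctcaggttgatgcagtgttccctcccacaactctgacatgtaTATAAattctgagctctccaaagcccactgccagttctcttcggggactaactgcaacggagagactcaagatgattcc
FN1: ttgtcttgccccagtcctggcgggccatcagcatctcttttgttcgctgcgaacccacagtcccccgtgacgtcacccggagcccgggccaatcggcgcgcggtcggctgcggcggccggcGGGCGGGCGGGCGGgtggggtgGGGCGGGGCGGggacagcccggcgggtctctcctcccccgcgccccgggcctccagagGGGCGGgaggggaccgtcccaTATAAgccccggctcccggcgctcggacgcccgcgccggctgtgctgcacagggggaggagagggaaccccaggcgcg
VIM: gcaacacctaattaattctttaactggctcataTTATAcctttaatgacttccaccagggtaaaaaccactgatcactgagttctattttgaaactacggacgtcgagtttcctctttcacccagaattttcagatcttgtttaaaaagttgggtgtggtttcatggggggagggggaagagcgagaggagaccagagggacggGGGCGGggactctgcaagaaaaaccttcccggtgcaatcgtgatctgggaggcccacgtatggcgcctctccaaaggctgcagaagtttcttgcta
TATAA was found in 20.4% and GGGCGG in 45.0% of all 35116 such windows. The *POSTN* window held 4 matches to TATAA, of which 2 on opposite strands overlap and 1 starts 29 bases before the start, and none to GGGCGG; its GC content was 39.0%. The *FN1* window held 6 matches to GGGCGG, some of them overlapping, and TATAA 28 bases before the start, with a GC content of 76.7%. The *VIM* window held 1 GGGCGG 46 bases before the start and 1 TATAA on the other strand 217 bases before it, at 48.0% GC. The median GC content of all windows was 58.7%. A match to these letters is a description of the sequence and not of a factor's binding.

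GGACT, the commonest core of an m6A site, was counted in the canonical GENCODE transcripts, on the strand of the transcript. *THY1* held 8 (1.78 per kb), *PDGFRA* 10 (1.57 per kb), *ACTA2* 2 (1.48 per kb), *POSTN* 4 (1.21 per kb) and *DCN* 8 (1.17 per kb). *VIM* held 2 (0.93 per kb), *FN1* 7 (0.83 per kb), *CTHRC1* 1 (0.81 per kb), *TAGLN* 3 (0.79 per kb) and *LUM* none. The median of 19749 protein-coding transcripts was 0.92 per kb, so these genes lie on both sides of it. No methylation was measured in the files used here.

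The label of mesenchyme was checked against other markers, and it held in part. Of 20 mesenchymal transcription factor genes, 14 were below 1 TPM in every hILO library, and 9 were below 1 CPM in every PP library, so that 11 reached it in PPs. *FOXF1*, *TCF21* and *TWIST2*, named here after their values were seen, had means of 0.00, 0.01 and 0.00 TPM in WT hILOs, and 0.00, 0.21 and 0.66 CPM in WT PPs. The highest of the list were *ZEB1* (8.34 and 9.74 TPM in WT hILOs) and *TWIST1* (4.50 and 4.08 TPM). The summed TPM of the 20 genes was 22.6 and 23.5 in WT and 24.6 and 21.5 in A5-KO hILOs. Of 17 fibroblast and stromal surface genes 8 were below 1 TPM in every hILO library, among them *PDPN* with a mean of 0.00. Others of that list were abundant, such as the chemokine gene *CXCL12* (140 and 138 TPM in WT against 173 and 168 TPM in A5-KO) and *S100A4* (32.3 and 34.3 TPM against 47.2 and 47.6 TPM), and its sum was 282 and 265 TPM in WT against 307 and 297 TPM in A5-KO. Within the 10 genes *THY1*, *DCN* and *PDGFRA* were below 0.5 TPM in every hILO library. Against this, 15 epithelial genes summed to 3956 and 4366 TPM in WT against 4370 and 4257 TPM in A5-KO hILOs, led by *EPCAM* (768 and 785 TPM in WT against 865 and 847 TPM in A5-KO). Some genes of matrix secretion were abundant at both stages, such as *FBLN1* (fibulin 1), with 198 and 187 TPM in WT against 173 and 167 TPM in A5-KO hILOs. Of 30 matrix glycoprotein and proteoglycan genes, however, 11 were below 1 TPM in every hILO library and 9 below 1 CPM in every PP library. Of the 10 endothelial genes, 7 were below 1 TPM in every hILO library, among them *CDH5*, *ERG* and *ROBO4*, with means of 0.00, 0.00 and 0.00 TPM in WT. *EGFL7* made up most of that list's sum of 185 and 178 TPM in WT, at 181 and 173 TPM. With markers on both sides, the 10 genes are described by name below, and not as the RNA of a mesenchymal cell. In bulk RNA, fewer cells of a type and less RNA in each cell cannot be told apart.

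**Figure D1:**
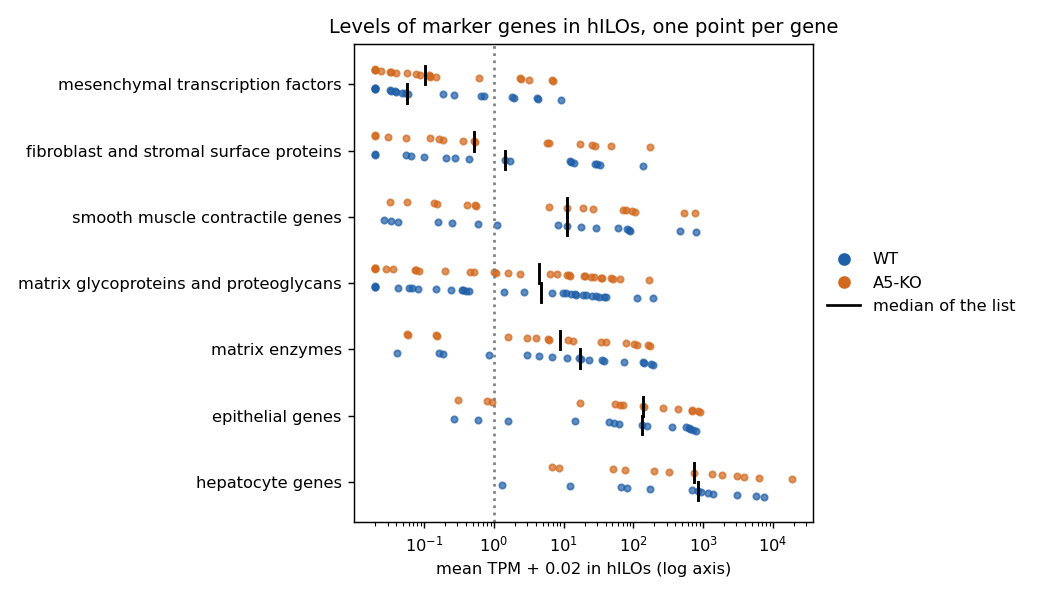
Mean level of each marker gene in WT (blue) and A5-KO (orange) hILOs, as TPM + 0.02 on a log axis, with 1 row per marker list; black bars are the median of the list and the dotted line is 1 TPM. Most mesenchymal transcription factor genes lie below the line, and most matrix, epithelial and hepatocyte genes above it.

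The levels of the 10 genes spanned more than 3 orders of magnitude. In WT hILOs, on the TPM scale, the order was *FN1* (276 ± 3.88, mean ± s.d., *n* = 2 libraries here and below), *VIM* (254 ± 0.55), *CTHRC1* (24.3 ± 0.29), *TAGLN* (14.7 ± 0.61), *ACTA2* (4.88 ± 1.11), *POSTN* (2.36 ± 2.03), *LUM* (0.90 ± 0.07), *THY1* (0.43 ± 0.01), *PDGFRA* (0.19 ± 0.01) and *DCN* (0.04 ± 0.01). Only *POSTN* and *LUM* overlapped as neighbours in that order. *FN1* ranked 496 and *VIM* 547 from the top among all genes. In A5-KO hILOs the order was changed: *VIM* and *FN1* still led, *POSTN* came next, and *CTHRC1* was last. There, *ACTA2* and *TAGLN* overlapped, as did *THY1* and *DCN*.

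In PPs at 0 h, CPM was divided by the length of the canonical transcript and rescaled to a fixed sum, for comparison between genes only. On that per-length scale *FN1* (770 ± 1.29) and *VIM* (377 ± 17.2) led in WT, at ranks 134 and 277 from the top, followed by *ACTA2* (25.7 ± 3.44), *POSTN* (6.03 ± 0.07), *TAGLN* (3.91 ± 0.52) and *CTHRC1* (2.30 ± 0.69). *CTHRC1* overlapped *LUM* (1.41 ± 0.59), and *PDGFRA*, *DCN* and *THY1* were below 1. In A5-KO PPs *POSTN* (28.8 ± 3.49) came next after *FN1* and *VIM* and overlapped *ACTA2* (25.2 ± 2.33).

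**Figure D2:**
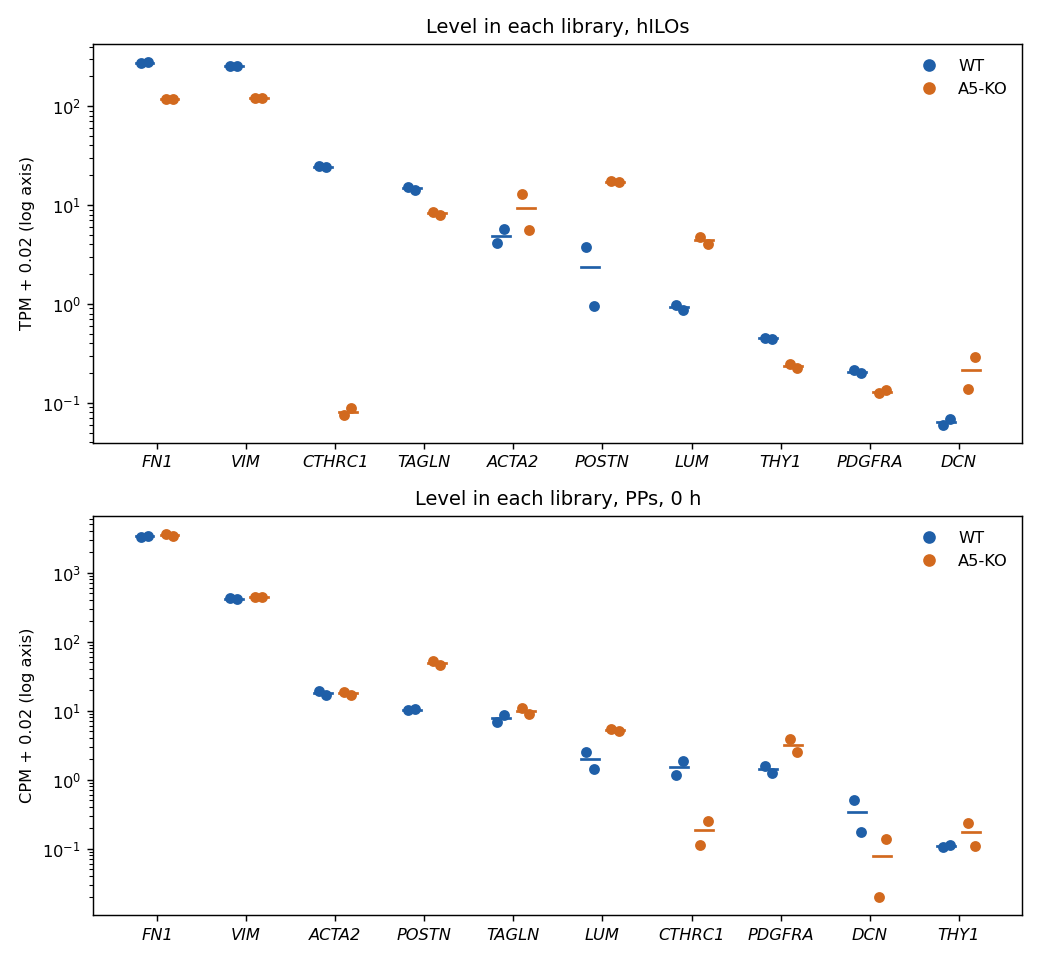
Level of each gene in each WT (blue) and A5-KO (orange) library of hILOs (top, TPM + 0.02) and of PPs at 0 h (bottom, CPM + 0.02), on log axes; points are libraries and bars their means. In hILOs *CTHRC1* lies near 24 TPM in WT and below 0.1 TPM in A5-KO, while *POSTN* and *LUM* lie higher in A5-KO in both panels.

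In hILOs the 10 genes did not move together. *FN1*, *VIM*, *CTHRC1* and *TAGLN* were lower in both A5-KO libraries, and *POSTN* and *LUM* were higher. A gene is termed called when its limma adjusted *p* was below 0.05 over all 17300 genes averaging at least 1 TPM and its change exceeded 1.5-fold on the log2(TPM + 1) scale. Of the 10 genes 7 passed the filter on low values, 2 lay past both limits on the higher side and 4 on the lower. The filter uses the mean over both genotypes. *CTHRC1* passed it only through its WT libraries and *LUM* only through its A5-KO libraries, so for these the counted difference itself decided their entry. Over all tested genes 2.70% were called higher and 4.09% lower, and nothing is read from the comparison with these shares, because the genes were picked with this contrast known. Without overlap between the genotypes, 24.3% of all tested genes were higher and 37.1% lower in A5-KO. Of the tested members 2 and 4 were. The median difference was -0.77 over the 7 genes and -0.06 over all genes.

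Among the secreted proteins, *FN1* was at 273 and 279 TPM in WT against 119 and 118 TPM in A5-KO. Both A5-KO libraries lay far below both WT libraries, with replicates within a few TPM of each other, and the log2 difference was -1.21 ± 0.04 (standard error). *CTHRC1* was at 24.5 and 24.1 TPM in WT against 0.055 and 0.068 TPM in A5-KO. It was the gene of the group with the widest separation between the genotypes, at -4.58 ± 0.14 on log2(TPM + 1), a scale that shrinks differences near 0 (-7.24 with a pseudocount of 0.1). *POSTN* was at 3.79 and 0.92 TPM in WT against 17.6 and 16.9 TPM in A5-KO. The WT libraries differed from each other several-fold, yet both lay below the A5-KO libraries, and the difference was 2.59 ± 0.47. It was 3.25 without the first WT library and 1.93 without the second. *LUM* was at 0.95 and 0.85 TPM in WT against 4.71 and 4.05 TPM in A5-KO, a difference of 1.5 ± 0.18. *DCN*, the neighbour of *LUM* on the minus strand of chromosome 12, was at 0.040 and 0.048 TPM in WT against 0.12 and 0.270 TPM in A5-KO. It did not pass the filter on low values.

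Of the cytoskeletal genes, *VIM* was at 253 and 254 TPM in WT against 121 and 121 TPM in A5-KO. The replicates were nearly identical and the log2 difference was -1.07 ± 0.03. *TAGLN* was at 15.2 and 14.3 TPM in WT against 8.57 and 7.92 TPM in A5-KO (-0.77 ± 0.10). Its exons share 2233 bases with *PCSK7* on the opposite strand, which was at 23.1 and 21.0 TPM in WT against 29.0 and 26.2 TPM in A5-KO, so the 2 genes lay on opposite sides. *ACTA2* was at 4.10 and 5.66 TPM in WT against 12.8 and 5.62 TPM in A5-KO. The genotypes overlapped, since only 1 A5-KO library was high, and the difference was 0.71 ± 0.40. *ACTA2* has close actin paralogs and shares exon bases with *FAS* (4.24 and 3.28 TPM in WT against 7.96 and 7.56 TPM in A5-KO), and whether the authors' quantification used strand is not given in the sources used here.

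Both surface genes were near the bottom of the table. *THY1* was at 0.433 and 0.422 TPM in WT against 0.227 and 0.206 TPM in A5-KO. *PDGFRA* was at 0.193 and 0.179 TPM in WT against 0.106 and 0.114 TPM in A5-KO. Neither passed the filter. For *PDGFRA* the level is uncertain, because 1533 exon bases are shared with a longer gene on the same strand (ENSG00000282278) that was listed at 11.4 and 11.4 TPM in WT against 8.39 and 8.55 TPM in A5-KO hILOs.

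**Figure D3:**
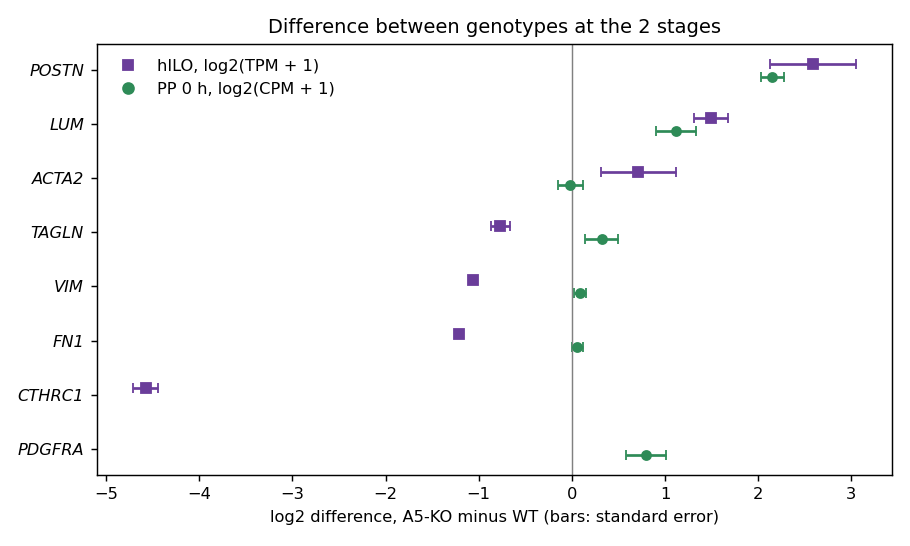
Difference between genotypes (A5-KO minus WT) for the members that passed the filter on low values, in hILOs (purple squares, log2(TPM + 1)) and in PPs at 0 h (green circles, log2(CPM + 1)); bars are standard errors. *POSTN* and *LUM* are right of 0 at both stages, whereas *VIM*, *FN1* and *TAGLN* are left of 0 in hILOs and near or right of 0 in PPs; *CTHRC1* passed the filter in hILOs only and *PDGFRA* in PPs only.

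In PPs at 0 h, *POSTN* and *LUM* were again higher in A5-KO, and the abundant genes *FN1* and *VIM* were at nearly the same level in both genotypes. Of the 10 genes 7 passed a mean of at least 1 CPM, and 2 lay past both limits on the higher side and 0 on the lower. Over all 13911 tested genes 1.57% were called higher and 1.13% lower, and nothing is read from the comparison with these shares either. Without overlap, 29.0% of all tested genes were higher and 20.8% lower. Of the tested members 5 were higher and 0 lower. The median difference was 0.32 over the 7 genes and 0.03 over all genes.

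*POSTN* was at 10.1 and 10.6 CPM in WT against 53.0 and 46.2 CPM in A5-KO, 4.79 times as high on the mean CPM. All libraries of a genotype were close to each other, and the log2 difference was 2.15 ± 0.12. *LUM* was at 2.50 and 1.39 CPM in WT (87 and 45 reads) and 5.44 and 5.13 CPM in A5-KO (176 and 175 reads), a difference of 1.12 ± 0.21. *FN1* was at 3303 and 3415 CPM in WT against 3599 and 3408 CPM in A5-KO, which overlap (0.06 ± 0.06). *VIM* was at 429 and 415 CPM in WT against 445 and 449 CPM in A5-KO. The A5-KO libraries lay above the WT libraries by a small step, 0.08 ± 0.06.

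*ACTA2* was at 19.5 and 16.6 CPM in WT against 18.6 and 17.0 CPM in A5-KO (-0.02 ± 0.13). The genotypes overlapped. *TAGLN* was at 6.86 and 8.55 CPM in WT against 10.9 and 8.79 CPM in A5-KO (0.32 ± 0.17), and *PDGFRA* at 1.58 and 1.21 CPM in WT against 3.86 and 2.52 CPM in A5-KO (0.79 ± 0.22). For both genes the A5-KO libraries lay above the WT libraries. *CTHRC1* had 40 and 59 reads in WT (1.15 and 1.83 CPM) and 3 and 8 reads in A5-KO (0.09 and 0.23 CPM), a ratio of A5-KO to WT of 0.11 over the summed reads (95% exact interval 0.054 to 0.209, counting error only). It was lower in A5-KO at this stage as well, and in every A5-KO library at 1, 2 and 3 h than in every WT library of the same time. The share of all genes without overlap at 1, 2 and 3 h was not counted. *DCN* had 17 and 5 reads in WT and 0 and 4 reads in A5-KO, a ratio of 0.18 (0.046 to 0.540), and *THY1* 3 and 3 reads against 7 and 3 reads, a ratio of 1.68 (0.554 to 5.63). These 3 genes did not pass the filter.

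Genes of the liver lineage also differed between the genotypes, in PPs mostly on the side of *POSTN* and *LUM* and in hILOs on both sides. Of all tested genes 2.70% were called higher and 4.09% lower in A5-KO hILOs, and 1.57% and 1.13% in A5-KO PPs at 0 h. Of 13 hepatocyte genes, a list chosen with earlier results known, 4 of the 13 tested were called higher and 4 lower in A5-KO hILOs (median 0.17), and 7 of the 12 tested were called higher and 0 lower in A5-KO PPs. Their summed TPM was 21445 and 21755 in WT and 36689 and 36403 in A5-KO hILOs, and their summed CPM 1264 and 1309 in WT and 2113 and 2136 in A5-KO PPs at 0 h. In hILOs the higher sum lay largely in *TTR* (7527 and 7550 TPM in WT against 18674 and 18749 TPM in A5-KO), while the 3 fibrinogen genes and *AHSG* were called lower. None of the 13 was below 1 TPM in every hILO library, and 1 was below 1 CPM in every PP library. The part of these genes in the differences of *POSTN* and *LUM* was not tested.

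Over the 16 PP libraries the genes closest to *POSTN* in pattern were hepatic. Among the 8920 genes whose mean reached 10 CPM, the highest Pearson correlations with *POSTN* on log2(CPM + 1) were those of *AFP* (α-fetoprotein, 0.995), *TTR* (transthyretin, 0.990) and *ALB* (albumin, 0.985). *AFP* was at 563 and 551 CPM in WT against 1343 and 1294 CPM in A5-KO before treatment. After 3 h it reached 878 and 1032 CPM in WT, and 1596 and 1504 CPM in A5-KO. As in *POSTN*, the WT libraries at 3 h lay between the other WT libraries and the A5-KO libraries. *FN1* was closest to *IGDCC3* (0.961), *LAMA1* (0.960) and *LAMB1* (0.938), the last 2 of which encode laminin chains of the basement membrane. *VIM* was closest to *ARPC1A* (0.925), *TUBA1A* (0.813) and *SNX17* (0.792), and *ACTA2* to *CAPZB* (0.828), *OGDHL* (0.803) and *ZFYVE19* (0.787). Between the 4 members of at least 10 CPM, *r* was 0.43 for *POSTN* and *FN1*, 0.36 for *FN1* and *ACTA2*, 0.26 for *POSTN* and *VIM*, and -0.29 for *VIM* and *FN1*. These values describe the 16 libraries, which share genotype, time and a fixed total. *POSTN*, *AFP*, *TTR* and *ALB* were all higher in A5-KO at 0 h, so the contrast that chose *POSTN* enters their *r*. No *r* within a genotype was computed.

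**Figure D4:**
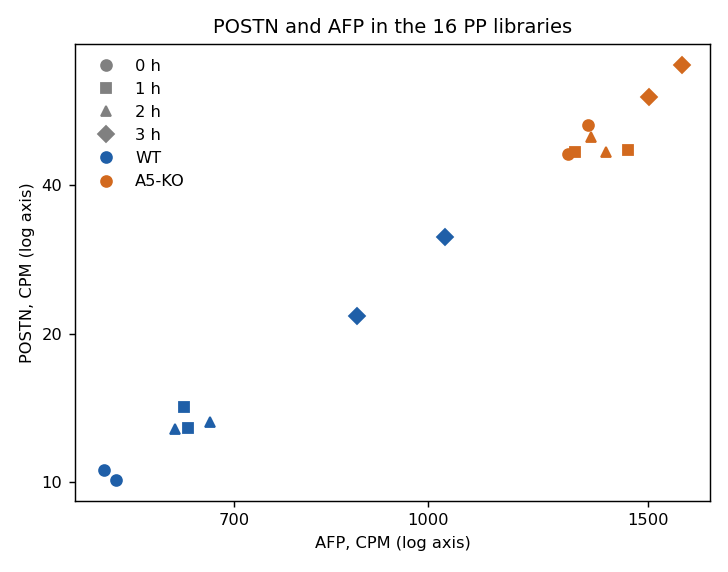
CPM of *POSTN* against CPM of *AFP* in the 16 PP libraries, on log axes; colours are genotypes (WT blue, A5-KO orange) and symbols the hours with Act D. The points form 1 band (*r* = 0.995), with the WT libraries at 3 h (diamonds) between the other WT libraries and the A5-KO libraries.

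Changes over the Act D time course were tested within a genotype. This is another contrast than the one that chose the genes, but its libraries are among those the genes were chosen on, so a level that was low or high by chance at 0 h enters these changes too. CPM is relative to the total mRNA, which shrinks while transcription is blocked, so a rise in CPM is a rise in share and stable mRNAs can rise. The fit covered 13620 genes over the 16 libraries, and 7 of the 10 genes passed its filter. The WT libraries at 3 h stood apart from the course: 15.3% of all genes were called lower in WT at 1 h and 10.1% at 3 h, against 16.7% and 30.9% in A5-KO. For that reason 2 h is given beside 3 h. The WT libraries at 2 h also differed from each other in other genes. A list of 9 pancreatic progenitor genes summed to 238 and 548 CPM in them, beside 430 and 438 CPM in WT at 3 h. The values at 2 h are therefore not free of such differences. Over all genes the median log2 change was -0.12 and -0.09 in WT at 1 and 3 h, and -0.14 and -0.22 in A5-KO.

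At 1 h, 0 of the 7 tested genes were called in either direction in WT or in A5-KO by limma, edgeR or DESeq2, with 2 (*FN1*, *POSTN*) in WT and 1 (*VIM*) in A5-KO at an unadjusted limma *p* below 0.05. The share of all genes called higher was 0.206% in WT and 1.06% in A5-KO. *FN1* came closest in WT, from 3303 and 3415 CPM at 0 h to 4255 and 4174 CPM at 1 h, a log2 change of 0.33 ± 0.11 (limma adjusted *p* = 0.034), which is below 1.5-fold. In A5-KO it was at 4675 and 3489 CPM at 1 h, libraries far apart, and its change of 0.21 ± 0.11 did not pass (adjusted *p* = 0.147).

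At 3 h *POSTN* and *LUM* rose past both limits in WT, and *FN1* did so in A5-KO. *FN1* in WT and *POSTN* in A5-KO also rose, but were not called. In WT 2 of 7 genes were called higher and 0 lower, where 0.338% of all genes were called higher. In A5-KO 1 of 7 was called higher and 0 lower, where 2.15% were. *FN1* was at 4845 and 4450 CPM at 2 h and 4390 and 3943 CPM at 3 h in WT, and at 5684 and 5634 CPM at 2 h and 5918 and 5967 CPM at 3 h in A5-KO. From 2 h on, every A5-KO library lay above every WT library. The change from 0 to 3 h was 0.76 ± 0.11 in A5-KO (limma adjusted *p* = 1.63e-05) and 0.31 ± 0.11 in WT (adjusted *p* = 0.061). At 2 h it was 0.69 in A5-KO (adjusted *p* = 5.7e-05) and 0.47 in WT (adjusted *p* = 0.003), of which the first exceeded 1.5-fold.

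*POSTN* in WT was at 14.2 and 12.9 CPM at 1 h, 13.3 and 12.8 CPM at 2 h, and 21.7 and 31.4 CPM at 3 h. The rise lay in the libraries at 3 h: its change was 1.26 ± 0.14 (limma adjusted *p* = 0.000156) at 3 h and 0.31 at 2 h (adjusted *p* = 0.115). In A5-KO it was at 46.7 and 47.1 CPM at 1 h, 49.9 and 46.7 CPM at 2 h, and 70.0 and 60.3 CPM at 3 h. Its change there of 0.39 ± 0.14 had an adjusted *p* of 0.032 but stayed below 1.5-fold. *LUM* in WT was at 2.68 and 5.18 CPM at 3 h, so 1 of the 2 libraries carried most of the change of 0.72 ± 0.23 (adjusted *p* = 0.048). Without that library the change was 0.35 (adjusted *p* = 0.389). It was also lost without either WT library at 0 h, with an adjusted *p* of 0.071 and 0.334. *POSTN* and *LUM* were lower in WT than in A5-KO at 0 h, in libraries the genes were chosen on. The *p* values of their changes in WT are therefore not independent of that choice. The 13 hepatocyte genes, summed, were at 1655 and 1806 CPM in the WT libraries at 3 h, above 1264 and 1309 CPM at 0 h. Their part in the changes of *POSTN* and *LUM* was not tested.

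*VIM* was not called at any time tested. It was between 409 and 495 CPM in the WT libraries and between 415 and 562 CPM in the A5-KO libraries, and its change at 3 h was 0.09 ± 0.09 in WT (95% interval -0.10 to 0.28) and -0.09 ± 0.09 in A5-KO (-0.28 to 0.10). *ACTA2* changed by 0.05 ± 0.13 in WT and 0.19 ± 0.13 in A5-KO, *TAGLN* by -0.04 ± 0.19 and -0.002 ± 0.19, and *PDGFRA* by 0.25 ± 0.26 and -0.33 ± 0.26. None of these passed the test at 1 or 3 h. At 2 h *PDGFRA* fell in A5-KO by 0.67 (adjusted *p* = 0.040), where it was at 1.96 and 1.28 CPM.

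**Figure D5:**
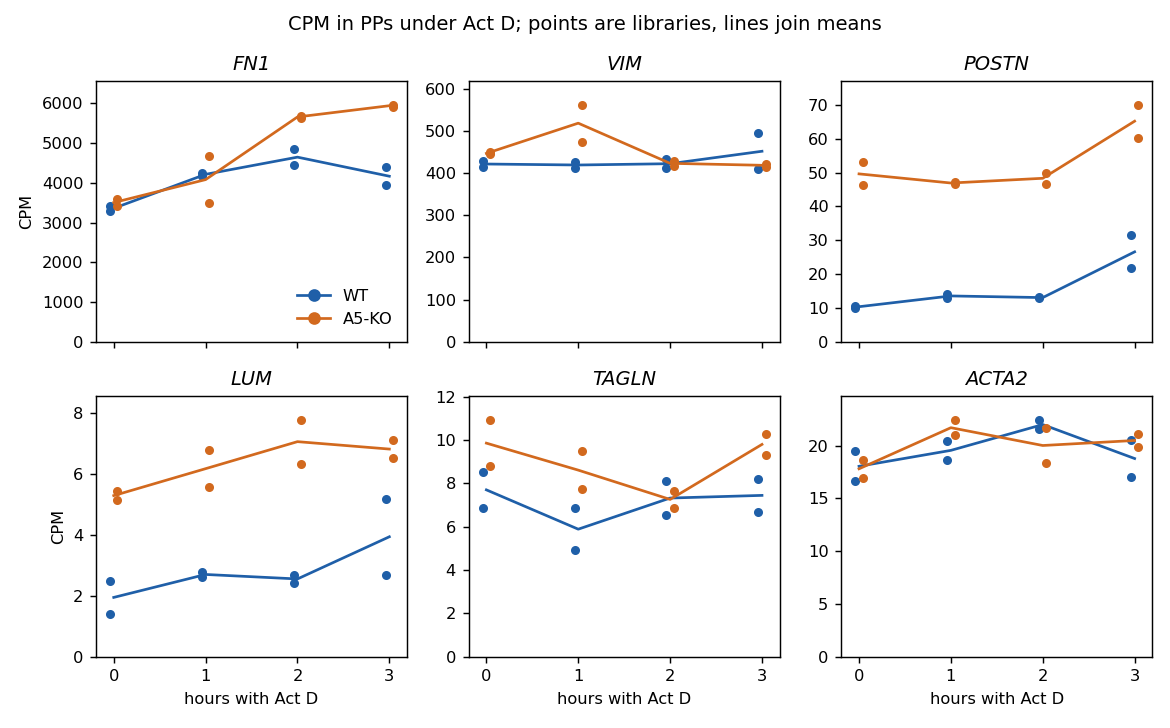
CPM of 6 members in PPs after 0, 1, 2 and 3 h with Act D, in WT (blue) and A5-KO (orange); points are libraries, lines join the means and each axis starts at 0. From 2 h on every A5-KO point of *FN1* lies above every WT point, *POSTN* in WT is highest at 3 h, and *VIM* has no called change.

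The difference between the genotypes' changes is itself a WT against A5-KO contrast over the libraries the genes were chosen on, so it is given as a description, with no *p*. At 1 h 0 of the 7 genes lay past both limits in either direction by limma, edgeR or DESeq2. Over all genes 0.220% were called higher and 0.00% lower. At 3 h 0 of 7 lay past both limits on the higher side and 1 on the lower, where 0.720% of all genes were called higher and 14.1% lower, and nothing is read from these counts. For *POSTN* the change from 0 to 3 h in A5-KO minus that in WT was -0.87 ± 0.20, beside a median over all genes of -0.17. With 2 h in place of 3 h it was -0.34. For *FN1* the value was 0.45 ± 0.15 at 3 h, 0.64 with median-of-ratios scaling, and 0.23 at 2 h. The other 5 genes lay between -0.58 (*PDGFRA*, ± 0.36) and 0.14 (*ACTA2*, ± 0.19).

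Other matrix and mesenchyme genes, on lists of the same kind, were called in both directions in hILOs, where 2.70% of all genes were called higher and 4.09% lower. Of 17 tested matrix glycoprotein and proteoglycan genes in hILOs, 1 (*MATN2*) was called higher and 2 (*MFAP2*, *SERPINF1*) lower. The most abundant of the list after *FBLN1* was *SERPINF1* (pigment epithelium-derived factor), with 115 and 113 TPM in WT against 67.8 and 59.9 TPM in A5-KO (-0.83). In PPs at 0 h, where the shares of all genes were 1.57% and 1.13%, 1 of 20 (*TNC*, tenascin C) was called higher and 0 lower. *FBLN1* was at 623 and 669 CPM in WT against 513 and 594 CPM in A5-KO there, and the proteoglycan gene *VCAN* at 437 and 430 CPM against 388 and 351 CPM.

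Of the matrix enzymes, 0 of 15 tested were called higher and 4 lower in hILOs, where 4.09% of all genes were called lower. Nothing is read from this comparison, because these lists were chosen with earlier results known. Those 4 were *LOX*, *LOXL1* and *LOXL2*, which encode cross-linking lysyl oxidases, and *PLOD2*, a lysyl hydroxylase of collagen (187 and 192 TPM in WT against 114 and 109 TPM in A5-KO, -0.76). *MMP14*, a membrane-bound matrix metalloproteinase, was at 177 and 175 TPM in WT against 175 and 166 TPM in A5-KO. In PPs 0 of 15 were called in either direction. The median difference of this list was -0.05 in hILOs and -0.16 in PPs, beside -0.06 and 0.03 over all genes.

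Of the smooth muscle contractile genes 0 of 10 tested were called by limma in either direction in hILOs and 0 of 13 in PPs. With 4.09% of all genes called lower in hILOs and 1.13% in PPs, lists of this size need hold no called gene, and nothing is read from these counts. *TPM1* was at 453 and 464 TPM in WT against 576 and 499 TPM in A5-KO hILOs, and *MYL9* at 81.2 and 80.1 TPM against 103 and 90.2 TPM. Of the fibroblast and stromal surface genes, 0 of 7 were called higher and 2 (*CD44*, *ITGA5*) lower in hILOs, and 0 of 11 higher and 2 (*CDH11*, *ITGA5*) lower in PPs. *ITGA5*, the integrin α chain that pairs with β1 to bind fibronectin, was at 141 and 142 CPM in WT against 82.6 and 82.4 CPM in A5-KO PPs (-0.77). Of the mesenchymal transcription factor genes, 0 of 6 were called in hILOs, and 1 of 8 (*ZEB2*) was called higher and 0 lower in PPs.

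For the counts that follow, the shares of all tested genes were 2.70% called higher and 4.09% lower in hILOs, and 1.57% and 1.13% in PPs at 0 h. Of the fibrillar collagen and collagen VI genes, 1 of 4 tested in hILOs was called higher (*COL1A2*, 5.98 and 2.65 TPM in WT against 19.0 and 15.6 TPM in A5-KO) and 1 lower (*COL6A1*, 37.0 and 36.8 TPM in WT against 21.4 and 20.1 TPM in A5-KO). In PPs 3 of 7 were called higher, among them *COL3A1* (22.0 and 24.1 CPM in WT against 58.8 and 64.5 CPM in A5-KO), and 1 lower. Like the 10 genes, these lists held members on both sides in the same libraries. Endocrine genes were called in the same hILO libraries, 1 of 10 higher (*NEUROD1*, 208 and 209 TPM in WT against 352 and 350 TPM in A5-KO) and 3 lower (*INS*, *GCG* and *SST*). *INS* was at 13033 and 12978 TPM in WT against 7605 and 7606 TPM in A5-KO, and the list's sum was 34955 and 37311 TPM against 28322 and 27079 TPM. The part of these genes in the lower *FN1*, *VIM*, *CTHRC1* and *TAGLN* was not tested. Genes of other cell types gave 0 calls for 13 epithelial, 3 endothelial and 2 neural crest genes tested in hILOs, and 0 for 15, 4 and 3 in PPs. Of the pericyte genes 1 of 2 tested (*KCNJ8*) was called higher in hILOs, and 2 of 3 (*RGS5*, *CSPG4*) lower in PPs. Of 6 mesothelial genes, 0 passed the filter at either stage.

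Under Act D at 3 h, some transcription factor genes fell. In A5-KO 0 of 9 tested transcription factor genes were called higher and 5 lower, among them *SNAI2* (-2.97, limma adjusted *p* = 1.05e-07) and *ZEB1* (-1.01, adjusted *p* = 3.59e-06), where 30.9% of all genes were called lower. In WT 1 of 9 was called lower (*SNAI2*, -1.56, adjusted *p* = 0.001), near the 10.1% of all genes. Of 20 matrix glycoprotein genes 3 were called higher and 1 lower in A5-KO, where 2.15% of all genes were called higher, and 1 higher and 0 lower in WT, where 0.338% were. Of 15 matrix enzyme genes 0 were called in either direction in either genotype.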

How the data were processed

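RNA-seq of WT and A5-KO hILOs (4 libraries) and PPs (16 libraries) was used, with groups taken from the labels. The 10 genes and all gene lists were chosen with earlier results of these data known. The authors used fastp for trimming and HISAT2 for alignment to GRCh38 (version 2.1.0 in the submitters' processing notes). For hILOs they quantified with StringTie and deposited TPM per gene, which summed to 887320 to 924887 per library. For PPs the authors deposited CPM without the ERCC spike-ins; the read counter and annotation release are not given in the sources used here. Every CPM value in the 16 libraries was a whole number of reads within 0.1 read, so reads were recovered for edgeR and DESeq2. Symbols and coordinates came from GENCODE, which matched 60370 and 60369 identifiers.

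Values were compared in R 4.3.3 by limma 3.58.1 (trended eBayes) on log2(value + 1), for genes averaging at least 1, with Benjamini-Hochberg adjustment over all of them. The study's limits for a call were kept (1.5-fold, adjusted *p* 0.05). The study's DESeq2 needs counts, so limma was the main test. The 4 hILO libraries and the 4 PP libraries at 0 h were fitted alone, and all 16 PP libraries together for Act D. The labels do not say whether replicates are separate cultures, so *p* measures the spread between these libraries. The smallest two-sided *p* of an exact permutation test is 0.33 for 2 libraries against 2. Intervals of read counts cover counting error only; for TPM the depth is unknown.

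Named genes were all 10 members, up to 4 genes of each list with the highest mean level, up to 3 genes with the highest correlation to a member of at least 10 CPM, and *ALKBH5*. Genes listed as called in a count of 5 or fewer, the marker genes near 0 and the overlapping genes were named after their values were seen. Alternatives were the pseudocount (0.1), the filter (none, or a mean of at least 5), quantile normalization, median-of-ratios scaling, the replicate number as a block, robust eBayes, other sets of libraries, edgeR (4.0.16) and DESeq2 (1.42.0), and each library left out in turn. Using 2 h in place of 3 h was added after the data were seen. The code was tested on simulated data.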

Additional observations from a re-analysis of the deposited data

Results flagged for a closer look

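Groups of 2 libraries allow no test for outlying samples. For 4 genes both A5-KO libraries lay on one side of both WT libraries in hILOs and on the other in PPs at 0 h. The units differ, and the difference between the stages was not tested. Without overlap, 24.3% of all tested genes were higher and 37.1% lower in hILOs, and 29.0% and 20.8% in PPs at 0 h. How many of all genes changed sides was not counted, so nothing is read from the count of 4. The mean level of A5-KO over that of WT was 0.48 in hILOs and 1.06 in PPs for *VIM*, 0.56 and 1.28 for *TAGLN*, 0.59 and 2.29 for *PDGFRA*, and 4.4 and 0.18 for *DCN*. *DCN* was below 0.3 TPM in every hILO library and had 26 reads or fewer over the 4 PP libraries at 0 h. For *POSTN* the 0 to 3 h change under Act D in A5-KO minus that in WT was -0.87 in the interaction contrast, and -0.34 with 2 h in place of 3 h. Since *POSTN* was chosen on WT against A5-KO levels in these libraries, no independent test of this difference was available.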

How the results depend on the processing

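TPM keeps no depth and 2 libraries per group limit every comparison. Between genotypes, and for the difference at 3 h, the counts describe members past the limits in contrasts that chose them, and say nothing of stability. The count of 6 members in hILOs was 3 without a filter on low values and 3 with the replicate block, which lost *POSTN*, *LUM* and *TAGLN*, and 3 to 4 with 1 library left out. In PPs at 0 h the count of 2 was 1 without a filter and 1 with a mean of at least 5, at which *LUM* is not tested, and 1 to 4 with 1 library left out; it was 4 without the second A5-KO library, when *PDGFRA* and *CTHRC1* were added. At 1 h of Act D, quantile normalization gave 1 call in WT (*POSTN*) and 1 in A5-KO (*ACTA2*). At 3 h in WT the count of 2 was 1 without a filter, with a mean of at least 5, with the replicate block and with only the libraries compared, 1 to 2 with 1 library left out, and 0 at 2 h. At 3 h in A5-KO the count of 1 was 2 with median-of-ratios scaling, edgeR or at 2 h, 3 with DESeq2, and 4 with quantile normalization, which turned *TAGLN* from -0.002 to 0.67 and took *FN1* below 1.5-fold (0.50). The count of 1 for the difference at 3 h was 2 with median-of-ratios scaling, edgeR and DESeq2, which added *FN1*, 0 to 1 with 1 library left out and 0 at 2 h. Over all genes, at 3 h in A5-KO, 293 were called higher and 4210 lower as deposited, 1554 and 3064 with median-of-ratios scaling, and 2624 and 2359 with quantile normalization. The log2 difference between replicates 1 and 2 in WT was correlated with that in A5-KO, over genes averaging at least 10. The correlation was 0.04 in hILOs and 0.30, -0.002, -0.12 and -0.01 in PPs at 0, 1, 2 and 3 h. The numbers thus gave little sign of pairing in hILOs and at 1, 2 and 3 h, while at 0 h pairing remains possible. There the replicate block gave 365 genes called higher and 266 lower, against 218 and 157 without it. The replicate block changed no other count of members beyond 1.5 times.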
